A study of Mus musculus with 556 samples.

Results

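Keratins are the intermediate filament proteins of epithelial cells and hair, and keratin-associated proteins form the matrix between keratin filaments in the hair shaft. All protein-coding mouse genes named Krt plus digits or starting with Krtap were taken, 109 of the 20665 protein-coding genes that could be placed in the deposited table. Each gene was put in the 100 kb bin that holds its midpoint, and each bin was used once, which gave 33 of the 24022 bins with a value. Of the genes, 100 lie in 3 clusters. The chr11 cluster (chr11:99232761-100269951, builds mm10 and GRCm38.p6) holds 27 Krt genes of type I, the acidic keratins, around a run of 23 Krtap genes, in 11 bins. The chr15 cluster (chr15:101348315-102032026) holds 26 Krt genes, the basic type II keratins and the type I gene Krt18, in 8 bins. The chr16 cluster (chr16:88610709-89571183) holds 24 Krtap genes and no Krt gene, in 8 of the 10 bins it spans. The other 9 genes are Krtap genes in 6 bins, of the Krtap5 family on chr7, Krtap10-4, Krtap10-10 and Krtap12-1 on chr10, and Krtap28-13 on chr1. Below, a bin is named by its first and last member gene.

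Type I and type II keratins assemble only as pairs, and which pair a cell makes is a mark of its epithelial state. Krt8 and Krt18 pair in simple epithelia and appear first in development in the outer cells of the embryo, Krt5 and Krt14 mark the basal layer of the epidermis, and Krt1 and Krt10 its upper layers. Hair keratins and Krtap genes are used late, in hair follicles.

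The position of these bins relative to the nuclear lamina was measured by single-cell DamID in mouse oocytes, embryos and embryonic stem (ES) cells. A bacterial DNA methyltransferase, Dam, was fused to lamin B1, a protein of the lamina under the inner nuclear membrane, and the DNA it methylated was sequenced. Dam alone, which marks accessible chromatin, was the control. In oocytes and embryos, mRNA for either protein, with a degron that auxin switches on, was injected. It was given with mRNA for the auxin receptor TIR1 and for a membrane EGFP, and auxin was absent for 6 to 8 h. For ES cells the labels give no mRNA dose.

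With Dam-lamin B1 there were 56 oocytes and 19 zygotes (5 ng/µl of Dam-lamin B1 mRNA), 47 cells of 2-cell embryos (10 ng/µl), 41 cells of 8-cell embryos (20 ng/µl) and 10 ES cells, and a further 17 oocytes labelled 20 ng and 23 labelled 50 ng. With Dam alone there were 43 oocytes and 46 zygotes (20 ng/µl), 45 blastomeres of 2-cell and 4 of 8-cell embryos (40 ng/µl). Zygotes with Dam-lamin B1 also received mRNA for Kdm5b, a demethylase of histone H3 lysine 4, at 2 µg/µl, wild type (14) or mutant (9), or mRNA for Kdm4d, a demethylase of histone H3 lysine 9, wild type (12) or mutant (10). Other zygotes were kept in aphidicolin (9), an inhibitor of DNA replication, or in DMSO (11), and the aphidicolin protocol in the labels describes 2-cell embryos only. Of the pronuclei taken out of Dam-lamin B1 zygotes, 15 were paternal and 10 maternal without Kdm5b, and the others were paternal with wild-type (19) or mutant (6) Kdm5b or maternal with wild-type (19) or mutant (13) Kdm5b. What the mutations change, the dose of Kdm4d mRNA and the dose of Dam-lamin B1 mRNA in the Kdm4d, aphidicolin, DMSO and Kdm5b-free pronuclear groups are not given in the labels. As strain the labels give C57BL/6 for oocytes and pronuclei, C57BL/6 female x CAST/EiJ male for zygotes and embryos, and 129/Sv female x CAST/EiJ male for ES cells. The labels' protocol instead names F1 (CBAxC57BL/6J) females, 5 to 8 weeks old. Zygotes with Kdm5b were injected earlier after ovulation was induced than zygotes with Dam-lamin B1 alone, and 1 pronucleus was isolated from a zygote by micromanipulation, the parental origin being read from its size and its place relative to the polar body.

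The table gives, for each cell and bin, the ratio of observed to expected reads (OE). An OE of 1 or more is called a contact here. The table holds 512 cells, of which 498 had a group. The estimated depth of a cell ran from 23564 to 2182256 reads, with a median of 71773.5, or about 2.99 reads per bin. A single bin of a single cell therefore rests on a few reads, and an OE of 0 says only that no read was counted. No pair of cells held identical values. No mother, litter or day is named in the labels, and p-values therefore measure the spread between these zygotes or pronuclei only. Stages were not tested against each other, since stage, mRNA dose and strain change together and several cells may come from 1 embryo: their levels are a description.

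DamID reads arise at GATC, the only sequence that Dam methylates, and the promoters of the genes on which the results turn are shown with GATC in capitals. An OE covers all GATC of a 100 kb bin, which were not counted, and a relation of promoter GATC to OE was not tested. TATAAA, the letters of the TATA box, is also in capitals wherever it occurs on the strand shown. Of these matches, only the first of Krtap4-9 begins 40 to 20 bases before the annotated start, near the usual place of a TATA box. A match is not a site. The stretch of Krtap4-8 after its annotated start opens with atg, the letters of a start codon. Its match, at -92, is counted from there, and where its transcript begins is not known here. Each stretch runs 5′ to 3′ on the gene's strand from 250 bases before the annotated start to 30 after it (RefSeq, GRCm38.p6). Krt8 and Krt18 lie side by side in the bin with the highest chr15 level in oocytes. Krt8 (chr15:102004313-102004592, minus strand) has 3 GATC, and Krt18 (chr15:102027966-102028245, plus strand) has 1.
Krt8: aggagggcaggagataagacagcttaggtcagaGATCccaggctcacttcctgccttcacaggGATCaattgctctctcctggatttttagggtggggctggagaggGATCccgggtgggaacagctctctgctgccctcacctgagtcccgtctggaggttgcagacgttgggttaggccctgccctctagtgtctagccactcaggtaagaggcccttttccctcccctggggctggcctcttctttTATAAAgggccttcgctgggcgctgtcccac
Krt18: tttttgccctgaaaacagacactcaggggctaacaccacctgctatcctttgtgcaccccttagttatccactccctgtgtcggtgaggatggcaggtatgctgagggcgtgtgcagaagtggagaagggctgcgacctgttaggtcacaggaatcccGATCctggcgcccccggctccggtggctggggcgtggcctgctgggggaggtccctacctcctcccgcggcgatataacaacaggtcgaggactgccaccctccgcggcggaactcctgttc

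Krt42 (chr11:100269922-100270201, minus strand), a type I keratin gene with 1 GATC, lies beside Krt14, Krt16 and Krt17 in the bin with the highest level in the 8-cell embryo. Krtap4-8 (chr11:99780614-99780893, minus strand) and Krtap4-9 (chr11:99784950-99785229, plus strand), both genes of cysteine-rich hair matrix proteins, lie in the bin with the lowest level in oocytes.
Krt42: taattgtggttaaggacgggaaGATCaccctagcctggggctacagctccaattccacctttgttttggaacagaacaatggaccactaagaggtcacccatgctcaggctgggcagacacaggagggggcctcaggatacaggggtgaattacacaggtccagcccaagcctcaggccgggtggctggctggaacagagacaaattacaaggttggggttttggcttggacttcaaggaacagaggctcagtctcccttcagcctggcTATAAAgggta
Krtap4-8: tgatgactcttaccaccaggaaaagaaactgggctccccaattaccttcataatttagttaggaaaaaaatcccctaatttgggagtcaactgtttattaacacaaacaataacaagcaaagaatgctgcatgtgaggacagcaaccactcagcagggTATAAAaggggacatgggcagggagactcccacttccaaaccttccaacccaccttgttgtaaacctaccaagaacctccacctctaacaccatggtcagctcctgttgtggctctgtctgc
Krtap4-9: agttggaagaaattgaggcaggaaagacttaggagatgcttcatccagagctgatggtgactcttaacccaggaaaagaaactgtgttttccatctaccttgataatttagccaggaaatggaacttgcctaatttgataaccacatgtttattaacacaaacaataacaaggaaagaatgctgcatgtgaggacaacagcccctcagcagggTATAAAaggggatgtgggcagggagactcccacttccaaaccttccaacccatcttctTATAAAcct

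Krtap19-5 (chr16:88896420-88896699, minus strand), a gene of the glycine- and tyrosine-rich group, stands for the chr16 bin with the most Krtap genes.
Krtap19-5: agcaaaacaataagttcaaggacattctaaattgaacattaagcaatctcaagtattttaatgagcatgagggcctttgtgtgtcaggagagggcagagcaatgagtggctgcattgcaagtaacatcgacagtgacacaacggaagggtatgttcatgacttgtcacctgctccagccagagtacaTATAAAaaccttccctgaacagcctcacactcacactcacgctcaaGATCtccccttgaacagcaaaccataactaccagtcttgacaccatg

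RefSeq promoters of 300 bases were found for 87 of the 109 genes. In 6 of these (among them Krt10 and Krt14) the entry starts inside the gene, more than 10 bases from its annotated start, and such entries were left out for members and all other genes alike, which left 81 members and 20654 promoters in all. GATC, which reads the same on both strands, was present in 11 of 14 promoters of the chr15 cluster (78.6%), 14 of 37 of the chr11 cluster (37.8%) and 4 of 23 of the chr16 cluster (17.4%), against 48.8% of all. TATAAA on either strand was present in 59 of the 81 (72.8%), against 16.0% of all promoters. On the gene's strand and starting 40 to 20 bases before the annotated start, TATAAA was present in 42 of the 81 (51.9%) and in 2.46% of all promoters. An entry whose annotated start is a start codon, such as Krtap4-8, can miss a match in this window. By this count the chr11 Krtap promoters were at 17 of 21, those of the chr11 Krt genes at 8 of 16, those of chr16 at 10 of 23 and those of chr15 at 3 of 14. The median GC content was 40.7% on chr16, 42.3% on chr11 and 53.3% on chr15, and 50.7% over all promoters. The 2 motifs do not overlap in letters, and a match is only a match of letters. Compared position by position from the annotated start, without gaps or shifts, the most alike pair, Krtap31-1 and Krtap31-2, shared 82.3% of positions. Copies with starts annotated at different places score low by this count. Krtap4-8 and Krtap4-9 share a long stretch around TATAAA, at -92 in 1 and -37 in the other. Yet their highest scores, with other promoters, were 31.7% and 32.3%, so the count does not show that other pairs are unlike. Near-identical Krtap copies can share reads, and the placing of such reads is not described in the labels.

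The authors' lists of lamina-associated domains (LADs) of the inner cell mass (ICM) and the trophectoderm (TE), the 2 lineages of the blastocyst, placed the 3 clusters differently. All 8 chr15 bins were in neither list, and so were all 20 bins within 1 Mb on either side. On chr16, 6 of 8 bins were in both lists and the other 2, at the distal end from Krtap21-1 to Krtap11-1, in the TE list only. On chr11, 5 of 11 bins were in both lists, 3 in the ICM list only (Krt222 to Krt24, Krt25 to Krt10 and Krtap31-1 to Krtap17-1) and 3 in neither (Krt33a to Krt35, Krt36 to Krt9 and Krt14 to Krt42). Of its 20 flanking bins, 19 were in neither list and 0 in both, so that the chr11 keratins in a LAD list lay within a region of non-LAD bins. Over all bins, 50.3% were in both lists and 32% in neither. The clusters also differed in their surroundings. The chr16 bins held 6.25 protein-coding genes per bin and their flanks 0.4, against 6 and 4 on chr11 and 3.5 and 2.9 on chr15.

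The chr11 and chr15 clusters had separate orders across stages. The mean OE of the chr11 cluster with Dam-lamin B1 was lowest in oocytes, 0.508 ± 0.191 (SD, n = 56), and highest in cells of the 8-cell embryo, 1.86 ± 0.638 (n = 41). It was 0.642 ± 0.411 in zygotes (n = 19), 0.899 ± 0.467 at the 2-cell stage (n = 47) and 0.945 ± 0.316 in ES cells (n = 10). Oocytes ran from 0.0676 to 0.901 with a median of 0.495, and cells of the 8-cell embryo from 0.732 to 4.28 with a median of 1.81. The 2 ranges met only at the ends: 0 of 56 oocytes and 40 of 41 cells of 8-cell embryos had a mean of at least 1. Zygotes, 2-cell embryos and ES cells lay between and overlapped each other and both ends. A cluster mean rested on a median of 15 reads in oocytes and 37 at the 8-cell stage. With the median over the 11 bins of each cell in place of the mean, the oocyte level was 0.138.

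**Figure D1:**
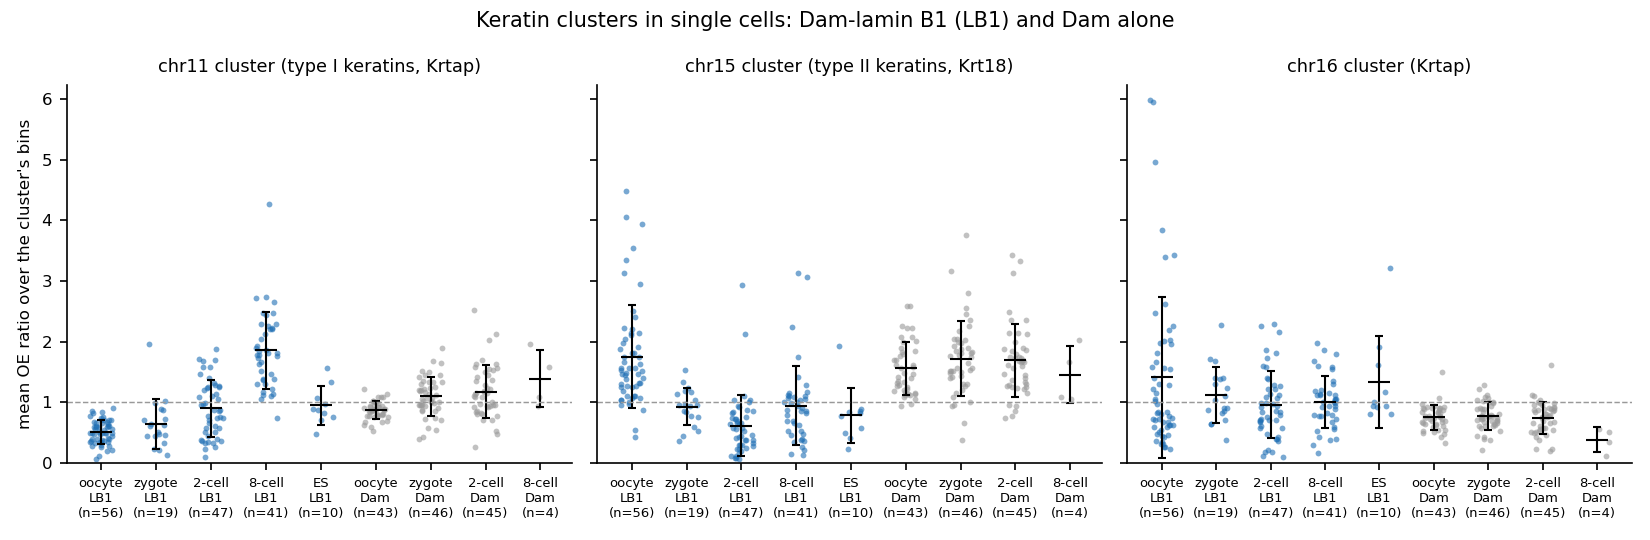
Mean OE ratio over the bins of each keratin cluster (vertical axis, linear, no unit) in each single cell (points), by stage, with Dam-lamin B1 (blue) and Dam alone (grey); bars are the mean ± SD and the dashed line is an OE of 1. On chr11 all 56 oocytes with Dam-lamin B1 lie below 1 and 40 of 41 cells of 8-cell embryos lie at or above it, while on chr15 the oocytes have the highest mean with Dam-lamin B1.

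The chr15 cluster had another order. Its mean OE with Dam-lamin B1 was 1.75 ± 0.858 in oocytes (from 0.416 to 4.49, median 1.52), 0.923 ± 0.309 in zygotes, 0.611 ± 0.508 at the 2-cell stage, 0.941 ± 0.653 at the 8-cell stage and 0.780 ± 0.460 in ES cells. Oocytes were the highest stage, with 51 of 56 at 1 or more, and the other 4 stages overlapped each other within 1 SD. The chr16 cluster showed no order beyond its spread. Its means were 1.41 ± 1.32 in oocytes, 1.12 ± 0.458 in zygotes, 0.958 ± 0.558 and 1.00 ± 0.433 in 2-cell and 8-cell embryos, and 1.33 ± 0.756 in ES cells. The oocyte mean on chr16 was above its median of 0.839, and single oocytes reached 5.99. The 6 Krtap bins outside the clusters had means of 0.928 ± 0.317, 0.744 ± 0.270, 0.438 ± 0.401, 0.764 ± 0.405 and 0.744 ± 0.296 in the same order of stages.

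The other oocyte groups gave the same order of the 3 cluster means as the 56 oocytes. In those labelled 20 ng and 50 ng the mean OE was 0.711 ± 0.225 and 0.653 ± 0.205 on chr11, 1.47 ± 0.276 and 1.43 ± 0.346 on chr15, and 1.09 ± 0.876 and 0.921 ± 0.207 on chr16.

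For comparison, the mean OE over all bins in both LAD lists with Dam-lamin B1 was 0.860, 1.20, 1.19, 1.22 and 1.20 in oocytes, zygotes, 2-cell embryos, 8-cell embryos and ES cells, and that over all bins in neither list was 0.970, 0.774, 0.711, 0.712 and 0.672. The chr11 cluster was thus below both classes in oocytes and above both at the 8-cell stage. Its own flanks had means of 1.18, 0.891, 0.660, 0.704 and 0.669. Within single cells, the chr11 cluster was above its own flanks in 0 of 56 oocytes, 3 of 19 zygotes, 33 of 47 cells of 2-cell embryos, 39 of 41 of 8-cell embryos and 7 of 10 ES cells. With Dam alone it was above them in 0 of 43 oocytes, 0 of 46 zygotes, 1 of 45 blastomeres at the 2-cell and 0 of 4 at the 8-cell stage. The highest of the 3 clusters was chr15 in 39 of 56 oocytes and chr11 in 35 of 41 cells of 8-cell embryos. In zygotes chr16 was highest in 9 and chr15 in 8 of 19, and at the 2-cell stage chr11 was highest in 23 and chr16 in 18 of 47.

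**Figure D2:**
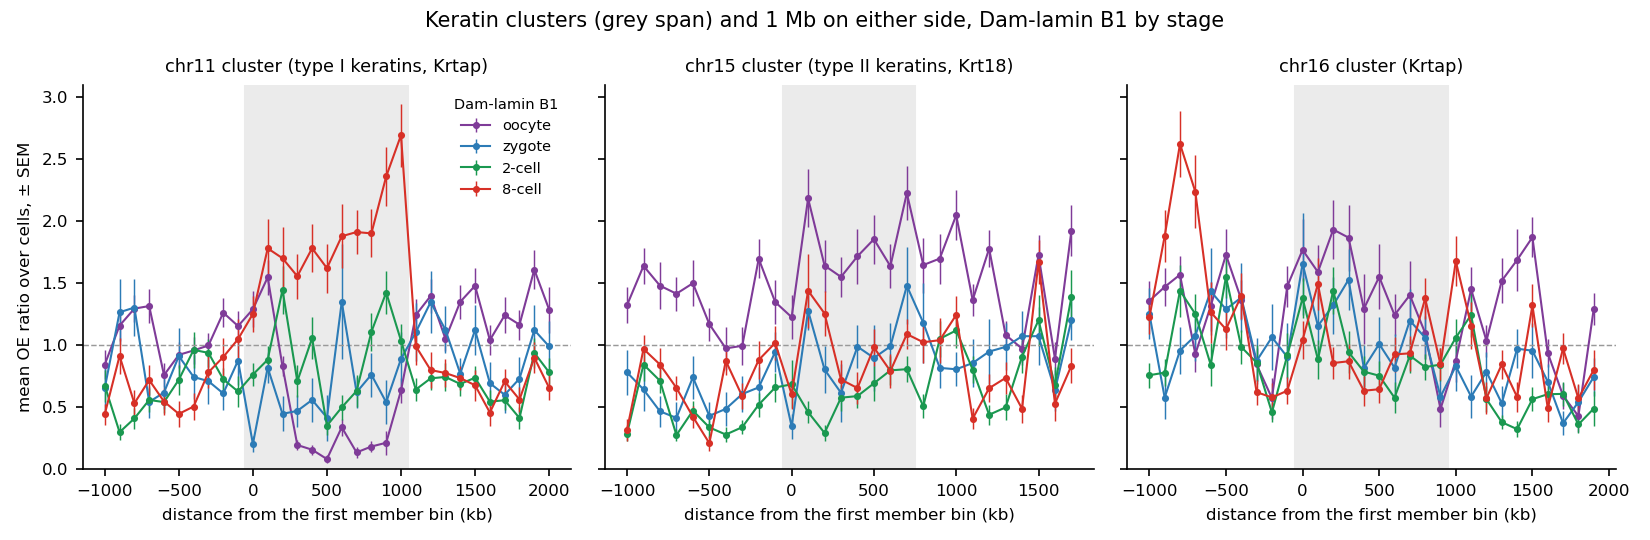
Mean OE ratio ± SEM over cells with Dam-lamin B1 (vertical axis, no unit) for each 100 kb bin of the 3 keratin clusters (grey span) and 1 Mb on either side, against distance from the first member bin in kb, by stage; the SEM takes cells as independent. On chr11 the 8-cell line stands above 1 along the span, up to 2.69 in its last bin, while the oocyte line is between 0.0808 and 0.337 in the bins with Krtap genes only.

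Counting contacts gave the same picture of chr11. A median of 2 of its 11 bins was in contact per oocyte (0 to 5), 2 per zygote (0 to 6), 4 per cell at the 2-cell stage (0 to 9), 8 at the 8-cell stage (4 to 11) and 4 per ES cell (1 to 8). More bins than not were in contact in 0 of 56 oocytes and 35 of 41 cells of 8-cell embryos. On chr15 a median of 6 of 8 bins was in contact per oocyte (2 to 8) and 1 at the 2-cell stage (0 to 7), where 17 of 47 cells had none. With Dam alone the median number of chr15 bins at an OE of 1 or more was 6 in oocytes, zygotes and 2-cell embryos alike. The chr15 count of oocytes was thus the same with both constructs. On chr11 the medians with Dam alone were 4, 5, 6 and 4.5 in oocytes, zygotes, 2-cell and 8-cell embryos.

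On chr11, the 4 bins with Krtap genes only had a mean OE of 0.177, 0.735, 0.633, 1.80 and 1.03 in oocytes, zygotes, 2-cell embryos, 8-cell embryos and ES cells. In oocytes labelled 20 ng and 50 ng these 4 bins were at 0.471 ± 0.433 and 0.456 ± 0.260, against 0.177 ± 0.191 in the 56 oocytes at 5 ng/µl. The 3 Krt bins after the Krtap run (hair keratins Krt31 to Krt35, then Krt13, Krt15, Krt19 and Krt9, then Krt14, Krt16 and Krt17) had means of 0.343, 0.729, 1.19, 2.32 and 1.09. The first 4 bins of the cluster, from Krt222 to Krtap9-3, had means of 0.964, 0.484, 0.949, 1.57 and 0.748. The last of these 4, Krt39 to Krtap9-3, already holds 7 of the 23 Krtap genes beside Krt39 and Krt40, and was at 0.194 ± 0.323, 0.469 ± 0.552, 0.707 ± 0.884, 1.55 ± 1.16 and 0.828 ± 0.406, low in oocytes like the bins with Krtap genes only.

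On the scale of log2(mean OE + 0.25), the 8-cell stage (20 ng/µl) was set against the 56 oocytes at 5 ng/µl only. The difference had a median of 2.02 over the 11 chr11 bins, with 10 above 0. It was -0.82 over the 8 chr15 bins, with 0 above 0, -0.49 over the 8 chr16 bins, with 2 above 0, and 0.10 over all bins. The 8 neighbouring chr11 bins from Krt39 to Krt42 each exceeded at least 98.1% of all bins in this difference. The largest of them, Krtap4-8 to Krtap4-9 (2.50), was exceeded by 24 of the 24022 bins, and Krt36 to Krt9 (2.50) by 25. The first 2 bins, Krt222 to Krt24 (-0.04) and Krt25 to Krt10 (0.18), were close to all bins. By step, the median over the chr11 bins was 0.77 from oocyte to zygote, 0.41 from zygote to 2-cell and 0.84 from 2-cell to 8-cell, and 0.08, -0.07 and 0.04 over all bins.

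The Krtap4-8 to Krtap4-9 bin (chr11:99700001-99800000) was close to empty in oocytes, at 0.0808 ± 0.224, with 48 of 56 oocytes at 0 and the highest at 0.963. It was in contact in 0 of 56 oocytes, for which the exact (Clopper-Pearson) 95% interval allows up to 6.38%. At the 8-cell stage it was at 1.62 ± 1.26 (from 0 to 5.64, median 1.53) and in contact in 26 of 41 cells (63.4%). The oocytes thus lay within the lower part of the 8-cell range. In zygotes the bin was at 0.415 ± 0.807, at the 2-cell stage at 0.350 ± 0.507 and in ES cells at 1.22 ± 0.721. With Dam alone it was at 0.612 ± 0.617 in zygotes. In oocytes it exceeded 0.312% of all bins, and at the 8-cell stage 87.6%.

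The Krt14 to Krt42 bin (chr11:100200001-100300000) holds Krt14, the type I keratin of basal epidermis, and the stress keratins Krt16 and Krt17. It was at 2.69 ± 1.62 at the 8-cell stage (from 0 to 6.28, median 2.45) and in contact in 35 of 41 cells (85.4%). In oocytes it was at 0.634 ± 0.727 with contact in 14 of 56, in zygotes at 0.888 ± 0.940, at the 2-cell stage at 1.04 ± 0.924 and in ES cells at 1.16 ± 0.497. Although the bin was in neither LAD list of the blastocyst, only 6 of the 7688 such bins had a higher 8-cell level. Krt36 to Krt9, which holds Krt19, a keratin of simple and ductal epithelia, was at 0.212 ± 0.725 in oocytes and 2.36 ± 1.52 at the 8-cell stage, where 13 of the 7688 were higher. Krt33a to Krt35, hair keratins, was at 0.182 ± 0.331 and 1.90 ± 1.24, with 59 of the 7688 higher. With Dam alone the 4 cells of 8-cell embryos had 2.44 ± 1.09 in the Krt14 bin, 1.26 ± 1.34 in the Krt19 bin and 1.55 ± 1.80 in the Krt35 bin.

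Krt10, the type I keratin of upper epidermis, lies in the Krt25 to Krt10 bin, which was at 1.55 ± 1.07, 0.818 ± 0.540, 0.881 ± 0.738, 1.78 ± 1.54 and 0.890 ± 0.643 in oocytes, zygotes, 2-cell embryos, 8-cell embryos and ES cells. It was the highest chr11 bin in oocytes, and in the 4 cells of 8-cell embryos with Dam alone it was at 4.08 ± 3.92. Krt222 to Krt24 was the lowest chr11 bin in zygotes (0.202 ± 0.289, contact in 0 of 19, exact 95% upper limit 17.6%), at the 8-cell stage (1.25 ± 0.923) and in ES cells (0.439 ± 0.288). It was also the only chr11 bin that did not have its highest level at the 8-cell stage. The highest chr11 bin was Krtap4-13 to Krtap9-1 in zygotes, at 1.35 ± 2.03 with a median of 0.786, Krt12 to Krt23, which holds the corneal Krt12, at the 2-cell stage (1.44 ± 1.33), and Krt33a to Krt35 in ES cells (1.27 ± 0.933).

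**Figure D3:**
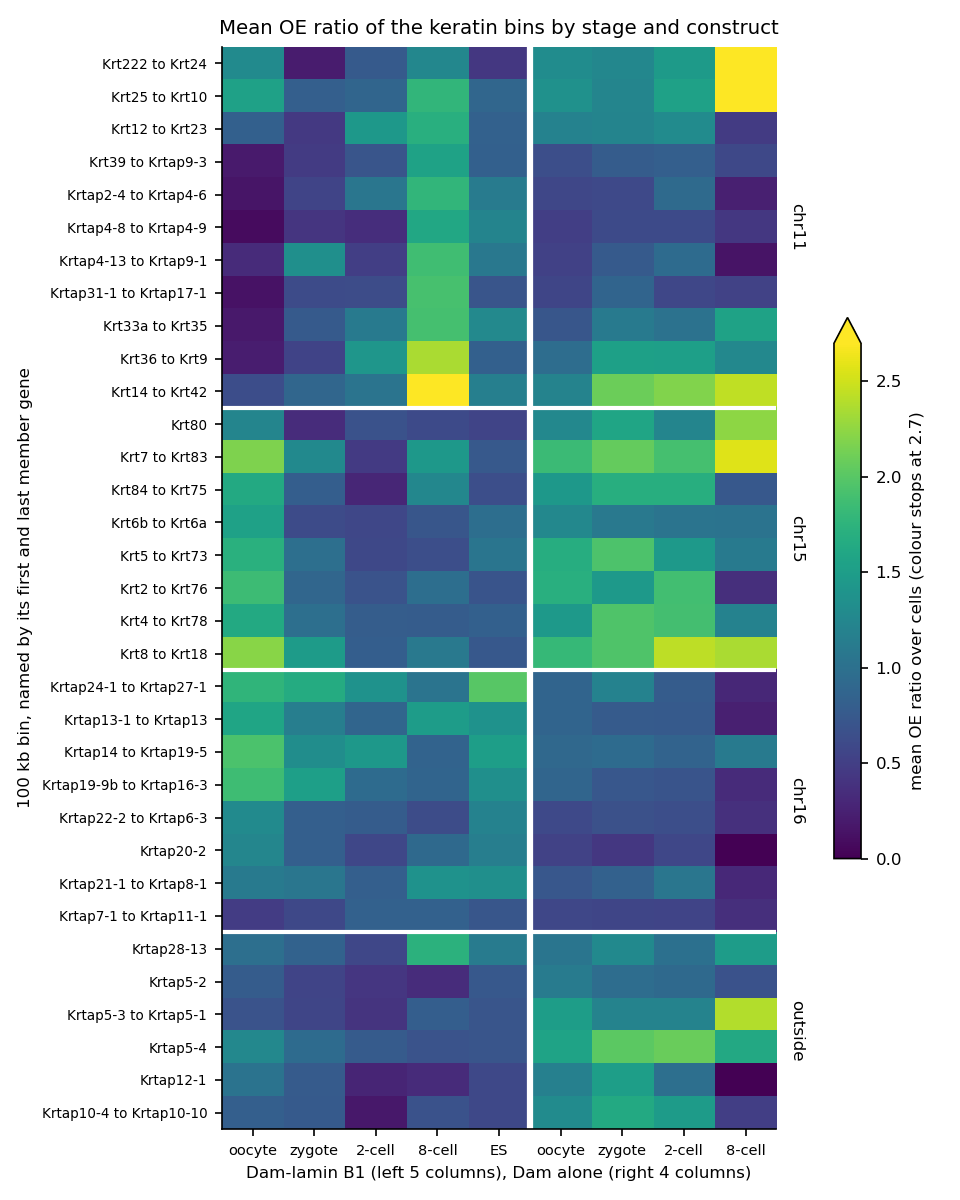
Heat map of the mean OE ratio over cells (colour, no unit, stopping at 2.7) of the 33 bins with keratin or keratin-associated genes, by cluster, across stages, first for Dam-lamin B1, then for Dam alone. With Dam-lamin B1 the chr11 bins from Krt39 to Krt42 are low in oocytes and high at the 8-cell stage, and all 8 chr15 bins are highest in oocytes.

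On chr15 all 8 bins had their highest level with Dam-lamin B1 in oocytes. Krt8 to Krt18 (chr15:102000001-102100000) was the highest of them, at 2.22 ± 1.63 (from 0 to 8.49, median 1.81), with contact in 49 of 56 (87.5%). It was at 1.48 ± 1.35 in zygotes with contact in 11 of 19, 0.805 ± 0.705 at the 2-cell stage with contact in 16 of 47, 1.09 ± 0.769 at the 8-cell stage with contact in 19 of 41 and 0.742 ± 0.430 in ES cells with contact in 2 of 10. With Dam alone this bin was at 1.81 in oocytes, 1.96 in zygotes, 2.43 at the 2-cell stage and 2.36 at the 8-cell stage. In oocytes 157 of the 24022 bins were higher with Dam alone. A high oocyte level was thus seen with both constructs, and the contact count there does not by itself mark the lamina. With Dam-lamin B1, 130 of the 24022 bins had a higher level in oocytes, and 8541 at the 8-cell stage. Krt80, at the other end of the cluster, was its lowest bin in oocytes (1.22 ± 1.33), zygotes (0.344 ± 0.428), at the 8-cell stage (0.602 ± 0.772) and in ES cells (0.552 ± 0.552). At the 2-cell stage the lowest was Krt84 to Krt75, hair and companion-layer keratins, at 0.291 ± 0.428.

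Between these ends, Krt7 to Krt83, with Krt7 of simple epithelia and the hair keratins Krt81, Krt83 and Krt86, was at 2.18 ± 1.75, 1.28 ± 0.681, 0.459 ± 0.587, 1.44 ± 1.91 and 0.752 ± 0.615 in oocytes, zygotes, 2-cell embryos, 8-cell embryos and ES cells. Krt5 to Krt73, with Krt5 of basal epidermis and Krt71 of the inner root sheath of hair, was at 1.72 ± 1.65, 0.987 ± 0.756, 0.588 ± 0.669, 0.653 ± 0.815 and 1.05 ± 0.979. Krt2 to Krt76, with Krt1 of upper epidermis, was at 1.85 ± 1.48, 0.896 ± 1.15, 0.692 ± 0.975, 0.98 ± 0.945 and 0.699 ± 0.561. Krt5 and Krt14, which pair in basal epidermis, lie on different chromosomes. With Dam-lamin B1, Krt5 was in a bin at 1.72 and Krt14 at 0.634 in oocytes. At the 8-cell stage Krt5 was at 0.653 and Krt14 at 2.69. The difference was above the SD of either bin at the 8-cell stage and below that of the Krt5 bin in oocytes. Dam alone gave the same order, 1.68 for Krt5 and 1.21 for Krt14 in oocytes, and 1.11 and 2.44 in the 4 cells of 8-cell embryos. The order is thus not particular to lamin B1. For the pair Krt1 and Krt10 the bins with Dam-lamin B1 were at 1.85 and 1.55 in oocytes and 0.98 and 1.78 at the 8-cell stage. They were less apart than either SD at both stages. Krt8 and Krt18, the only pair side by side, share a bin and cannot be told apart here.

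On chr16 the bin with the most members, Krtap14 to Krtap19-5, was the highest in oocytes (1.93 ± 1.78) and at the 2-cell stage (1.44 ± 1.30). It was at 1.32 ± 0.994 in zygotes, 0.855 ± 0.835 at the 8-cell stage and 1.51 ± 0.715 in ES cells. Krtap24-1 to Krtap27-1, at the proximal end, was the highest in zygotes (1.66 ± 1.79) and in ES cells (2.00 ± 2.11), and Krtap13-1 to Krtap13 at the 8-cell stage (1.49 ± 1.34). Krtap7-1 to Krtap11-1, at the distal end and in the TE list only, was the lowest in oocytes (0.484 ± 1.09), zygotes (0.583 ± 0.580) and ES cells (0.721 ± 0.529). The lowest at the 2-cell stage was Krtap20-2 (0.576 ± 0.860) and at the 8-cell stage Krtap22-2 to Krtap6-3 (0.631 ± 0.762). The highest and the lowest bin thus changed with the stage, and the SDs were large against the gaps between them.

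With Dam alone the chr15 cluster stood highest at each stage. It was at 1.56 ± 0.436, 1.72 ± 0.612, 1.69 ± 0.599 and 1.45 ± 0.472 in oocytes, zygotes, 2-cell and 8-cell embryos, and was the highest of the 3 in 42 of 43, 38 of 46, 35 of 45 and 2 of 4 cells. The chr16 cluster was at 0.747 ± 0.202, 0.769 ± 0.225, 0.742 ± 0.267 and 0.378 ± 0.206, and the chr11 cluster at 0.870 ± 0.147, 1.10 ± 0.320, 1.17 ± 0.438 and 1.39 ± 0.465. The log2 of mean Dam-lamin B1 over mean Dam, with 0.25 added to both, had a median over the chr11 bins of -1.02, -0.47, -0.15 and 1.11 at these stages, against -0.19, -0.20, 0.11 and 0.60 over all bins. Over the chr15 bins it was 0.15, -0.73, -1.11 and -0.53, and over the chr16 bins 0.86, 0.40, 0.27 and 1.08. In oocytes 1 of 11 chr11 bins, 7 of 8 chr15 bins and 7 of 8 chr16 bins were above Dam alone, where 30.6% of all bins were. At the 8-cell stage these were 9, 2 and 7, against 64.7% of all bins, which rests on 4 Dam cells. Dose differs between the constructs at every stage, so dose and construct cannot be told apart in these values.

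As a description, over the 41 cells of 8-cell embryos, which may share embryos and differ in depth, Pearson's r between cluster means was -0.09 for chr11 and chr15, 0.08 for chr11 and chr16 and 0.47 for chr15 and chr16. Over the 56 oocytes these were -0.09, -0.26 and 0.08.

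Zygotes with Dam-lamin B1 (n = 19) were tested against zygotes with Dam (n = 46), to ask which keratin bins lamin B1 marks more or less than Dam alone does. With limma on log2(OE + 0.25) over 23805 bins (2-sided, Benjamini-Hochberg adjusted p under 0.05), 1 keratin bin was higher with Dam-lamin B1, 19 were lower and 13 did not pass. Over all bins 22.2% were higher and 38.1% lower. By cluster, 0 of 11 chr11 bins were higher and 6 lower, 0 of 8 chr15 bins higher and 8 lower, 1 of 8 chr16 bins higher and 0 lower, and 0 of the 6 bins outside the clusters higher and 5 lower. Of the 16 keratin bins in neither LAD list 14 were lower and 0 higher, against 74.9% and 2.15% of all such bins. Of the 12 in both lists 4 were lower and 1 higher, against 16.1% and 34.2% of all such bins. The median log2 difference was -0.66 over the keratin bins, -0.67 on chr11, -0.88 on chr15, 0.20 on chr16 and -0.93 outside, and -0.37 over all bins, -0.88 over bins in neither list and 0.21 over bins in both.

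Median depth was 41812 reads for Dam-lamin B1 and 94299 for Dam. With every zygote thinned to 28431 reads 2 keratin bins were higher and 12 lower. Over all bins 4673 were then higher and 4206 lower, where the full data gave 5296 and 9062, and percentile ranks within each cell gave 6515 and 7139. Thinning moved the median difference over all bins from -0.37 to -0.20, and that over the keratin bins from -0.66 to -0.64.

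**Figure D4:**
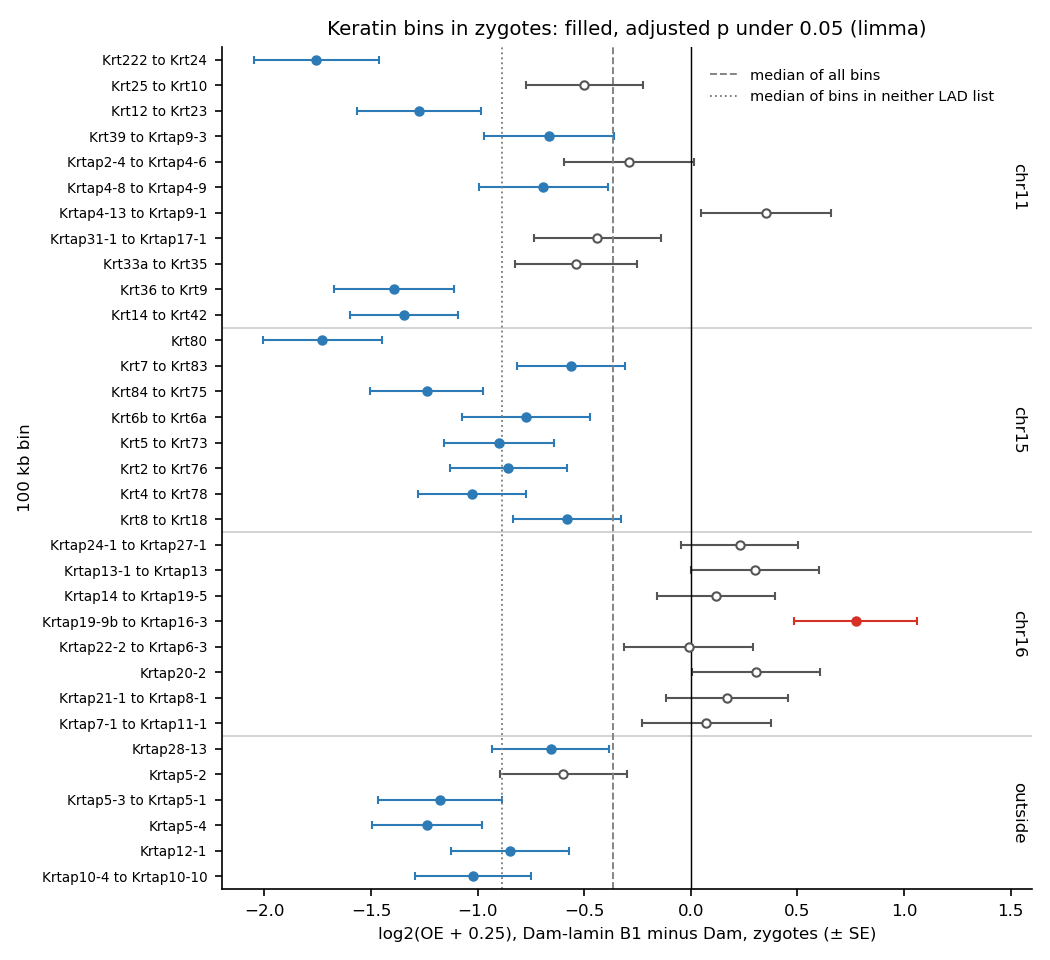
Difference of zygotes with Dam-lamin B1 (n = 19) from zygotes with Dam (n = 46) in log2(OE + 0.25) ± SE for the 33 keratin bins; filled points passed limma's adjusted p of 0.05, and lines mark the median of all bins (-0.37) and of bins in neither LAD list (-0.88). All 8 chr15 bins lie below 0 and are filled, and on chr16 only Krtap19-9b to Krtap16-3 is filled.

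The smallest p-values were those of the first bins of the chr15 and chr11 clusters. Krt80 was at 1.59 ± 1.06 with Dam (0 to 5.21, median 1.26) and 0.344 ± 0.428 with Dam-lamin B1 (0 to 1.52, median 0). It fell by 1.73 on the log2 scale (SE 0.280, limma adjusted p = 7.73e-08), with 19 of 19 zygotes below the Dam mean, although the ranges overlapped. Krt222 to Krt24 was at 1.25 ± 0.794 with Dam (0 to 3.37, median 1.09) and 0.202 ± 0.289 with Dam-lamin B1 (0 to 0.778, median 0). It fell by 1.76 (SE 0.293, limma adjusted p = 1.76e-07), with 19 of 19 below the Dam mean. The chr11 bins next in p were Krt14 to Krt42, from 2.09 ± 1.16 to 0.888 ± 0.940 (limma adjusted p = 2.81e-06), and Krt36 to Krt9, from 1.53 ± 0.872 to 0.539 ± 0.777 (limma adjusted p = 1.06e-05). The other bins among the 10 with the smallest p were Krt12 to Krt23, Krt84 to Krt75, Krtap5-4, Krtap5-3 to Krtap5-1, Krt4 to Krt78 (mucosal Krt4) and Krtap10-4 to Krtap10-10, with log2 differences from -1.27 to -1.02.

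Krt8 to Krt18 had one of the smaller differences. It was at 1.96 ± 1.15 with Dam (0 to 4.53, median 1.74) and 1.48 ± 1.35 with Dam-lamin B1 (0 to 4.63, median 1.02), and the groups overlapped over nearly the whole range. It fell by 0.58 (SE 0.252, limma adjusted p = 0.0372). With equal reads the difference was -0.15 and was not called (limma adjusted p = 0.756). Among the other anchor genes of chr15, Krt7 to Krt83 fell by 0.56 (limma adjusted p = 0.0456), Krt5 to Krt73 by 0.90 (adjusted p = 0.00165) and Krt2 to Krt76 by 0.86 (adjusted p = 0.00467). The chr11 bins of Krt10 (-0.50, limma adjusted p = 0.102) and Krt35 (-0.54, adjusted p = 0.0898) did not pass.

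The single higher bin was Krtap19-9b to Krtap16-3 on chr16, at 1.53 ± 1.07 with Dam-lamin B1 (0 to 4.01, median 1.28) and 0.737 ± 0.515 with Dam (0 to 1.90, median 0.626). Its log2 difference was 0.77 (SE 0.288, limma adjusted p = 0.0153), with 15 of 19 zygotes above the Dam mean, and the ranges overlapped. With replicate numbers as a block the difference was 0.43 and was not called (limma adjusted p = 0.275). That fit kept only zygotes whose number occurs in both groups (19 numbers), and so fewer Dam zygotes. Fisher's exact test on contact called no keratin bin higher at an adjusted p under 0.05 and 2 unadjusted. The chr16 bin with the most genes, Krtap14 to Krtap19-5, differed by 0.12 (limma adjusted p = 0.722).

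Paternal pronuclei without Kdm5b (n = 15) were tested against maternal ones (n = 10), to ask whether the parental genomes differ at keratins. By limma 1 of 33 keratin bins was higher in paternal pronuclei and 0 lower, against 1.86% and 0.268% of all bins. The bin was Krt33a to Krt35 on chr11, which holds 6 hair keratins. It was at 0.986 ± 0.422 in paternal pronuclei (0.393 to 1.94, median 0.983) and 0.151 ± 0.220 in maternal ones (0 to 0.689, median 0.0467). The paternal pronuclei were above the maternal mean in 15 of 15, and the ranges overlapped. The log2 difference was 1.70 (SE 0.450, limma adjusted p = 0.0224). Median depth was 144985 reads in paternal and 83407 in maternal pronuclei, and the call was lost with equal reads (limma adjusted p = 0.352) and on percentile ranks (adjusted p = 0.0622). At an unadjusted p under 0.05, 3 keratin bins were higher and 0 lower, where 13% and 3.34% of all bins were. All of them lie on chr11. Besides Krt33a to Krt35 they were Krtap31-1 to Krtap17-1 (0.728 ± 0.558 against 0.144 ± 0.206) and Krt39 to Krtap9-3 (0.580 ± 0.798 against 0.0946 ± 0.220). The median log2 difference was 0.57 over the chr11 bins, 0.10 on chr15, 0.31 on chr16 and 0.19 over all bins.

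As a description, the mean level of the chr11 cluster was lower in maternal than in paternal pronuclei in all 3 Kdm5b states, with overlapping ranges. Its mean OE was 0.609 ± 0.213 in paternal and 0.336 ± 0.225 in maternal pronuclei without Kdm5b, 1.06 ± 0.320 and 0.508 ± 0.251 with wild-type Kdm5b, and 0.850 ± 0.180 and 0.432 ± 0.136 with the mutant. On chr15 these were 0.671 ± 0.25 and 0.661 ± 0.197, 1.08 ± 0.254 and 1.10 ± 0.407, and 0.897 ± 0.301 and 0.729 ± 0.398. On chr16 they were 1.06 ± 0.767 and 0.910 ± 0.544, 0.829 ± 0.242 and 0.985 ± 0.816, and 1.14 ± 0.528 and 1.14 ± 1.01. On chr15 and chr16 each parental pair differed by less than the larger SD of the pair.

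**Figure D5:**
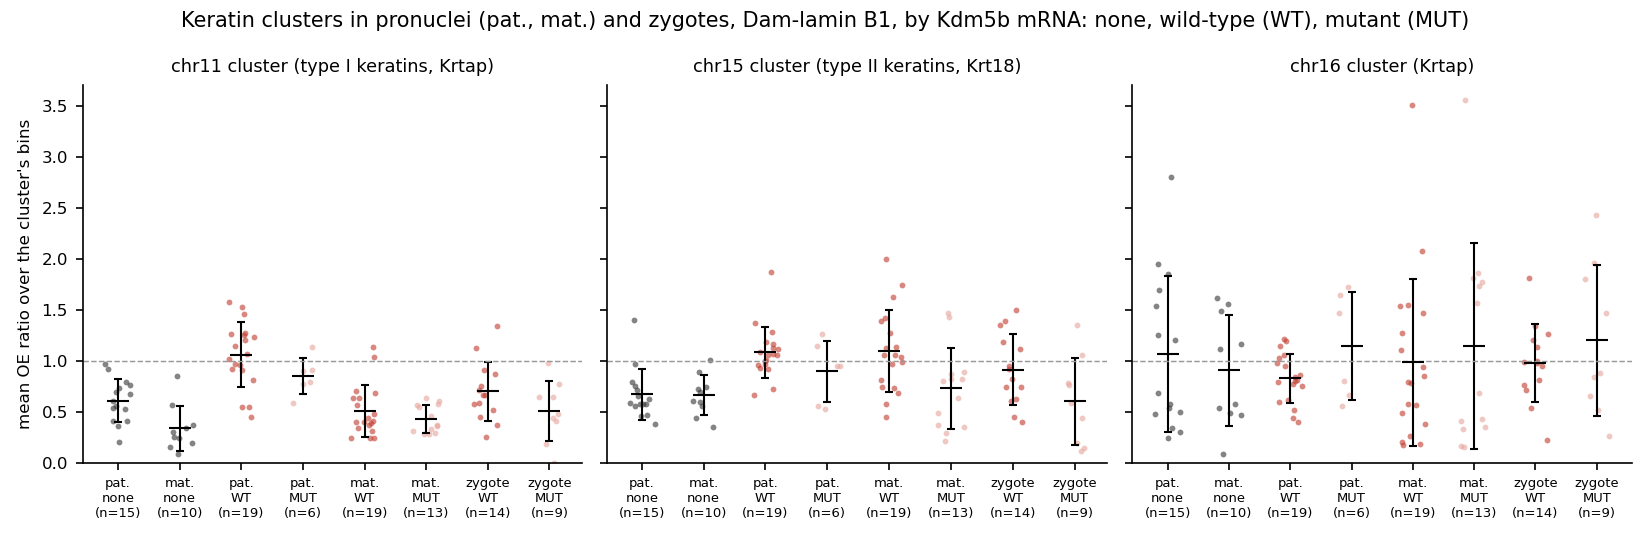
Mean OE ratio over the bins of each keratin cluster (vertical axis, linear, no unit) in single pronuclei and zygotes with Dam-lamin B1 (points), by parental origin and Kdm5b mRNA; bars are the mean ± SD. On chr11 the paternal means (0.609, 1.06 and 0.850) stand above the maternal ones (0.336, 0.508 and 0.432), and on chr15 and chr16 the parental groups overlap.

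Wild-type Kdm5b was set against mutant Kdm5b in zygotes (n = 14 and 9), paternal pronuclei (n = 19 and 6) and maternal pronuclei (n = 19 and 13), to ask which bins differ between wild type and mutant. With limma 0 of 33 keratin bins passed in any of the 3, in either direction. Over all bins 0% were higher and 0% lower in zygotes, 0.0168% and 0% in paternal pronuclei, and 0% and 0% in maternal pronuclei. Fisher's exact test on contact, adjusted over all bins, called 0 keratin bins as well.

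In zygotes 7 keratin bins were higher under wild-type Kdm5b and 0 lower at an unadjusted limma p under 0.05, where 14.2% and 3% of all bins were. Fisher's exact test gave 1 and 0 at that level. The smallest p-values were those of Krtap12-1, 0.706 ± 0.416 with wild type and 0.341 ± 0.533 with mutant (log2 difference 1.00, limma adjusted p = 0.198), and Krt6b to Krt6a, wound keratins, 0.670 ± 0.428 and 0.294 ± 0.473 (0.97, adjusted p = 0.204). The groups overlapped in both bins. Median depth was 216241 and 85766 reads, and with equal reads 0 keratin bins were higher and 1 lower at an unadjusted p under 0.05. The median difference was 0.71 on chr15, 0.44 on chr11 and -0.10 on chr16, against 0.24 over all bins and 0.56 over bins in neither LAD list.

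In paternal pronuclei 1 keratin bin was higher under wild-type Kdm5b and 3 lower at an unadjusted limma p under 0.05, against 7.64% and 6.33% of all bins, and Fisher's exact test gave 0 and 1. The lower bins were all on chr16. Krtap13-1 to Krtap13 was at 0.670 ± 0.594 with wild type and 1.70 ± 0.951 with mutant (log2 difference -1.22, limma adjusted p = 0.223). Krtap14 to Krtap19-5 was at 0.898 ± 0.548 and 1.89 ± 0.751 (-1.01, limma adjusted p = 0.247), and Krtap22-2 to Krtap6-3 at 0.731 ± 0.540 and 1.56 ± 0.415 (-1.07, limma adjusted p = 0.246). The groups overlapped in each. The higher bin was Krtap5-4, at 1.14 ± 0.736 and 0.501 ± 0.467. With equal reads 2 keratin bins were higher and 0 lower at that level.

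In maternal pronuclei 4 keratin bins were higher and 0 lower at an unadjusted limma p under 0.05, against 7.31% and 2.09% of all bins, and Fisher's exact test gave 5 and 0. Of these, 3 were on chr15. Krt84 to Krt75 was at 1.03 ± 0.642 with wild type and 0.263 ± 0.412 with mutant (log2 difference 1.44, limma adjusted p = 0.295), Krt7 to Krt83 at 1.34 ± 0.569 and 0.693 ± 1.09 (1.31) and Krt2 to Krt76 at 1.45 ± 1.09 and 0.730 ± 0.876 (0.93). Outside the clusters Krtap10-4 to Krtap10-10 was at 1.11 ± 1.01 and 0.289 ± 0.449 (1.16). The groups overlapped in each of these bins. The median read depth of these pronuclei was 74913 under wild-type and 52543 under mutant Kdm5b. With equal reads 2 keratin bins were higher and 0 lower at that level, over the 29 that passed the filter.

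The difference between the paternal and the maternal effect of Kdm5b was tested as an interaction in limma. It gave 0 of 33 keratin bins, against 0% higher and 0.0042% lower of all bins. At an unadjusted p under 0.05, 0 keratin bins were higher and 3 lower (1.91% and 4.17% of all bins), namely Krt7 to Krt83 (-1.48), Krtap13-1 to Krtap13 (-1.43) and Krt84 to Krt75 (-1.23). Fisher's exact test has no interaction and was not run here.

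Wild-type against mutant Kdm4d in zygotes (n = 12 and 10) gave 0 of 33 keratin bins by limma, against 0.0042% higher and 0% lower of all bins. Fisher's exact test gave 0, adjusted or not. At an unadjusted limma p under 0.05, 1 keratin bin was lower and 0 higher, where 2.26% and 1.67% of all bins were. It was Krtap19-9b to Krtap16-3, at 1.16 ± 1.12 with wild type and 2.03 ± 1.20 with mutant, a log2 difference of -0.81. The next smallest p was that of Krtap14 to Krtap19-5 (-0.66).

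Aphidicolin against DMSO (n = 9 and 11) also gave 0 of 33 keratin bins by limma, against 0.0084% higher and 0.0042% lower of all bins, and 0 by Fisher's exact test, adjusted or not. At an unadjusted limma p under 0.05, 1 keratin bin was higher and 0 lower (2.76% and 2.8% of all bins). It was Krtap4-13 to Krtap9-1, at 0.673 ± 0.414 with aphidicolin and 0.280 ± 0.377 with DMSO (0.95), followed in p by Krt84 to Krt75, at 0.372 ± 0.441 and 0.886 ± 0.734 (-0.90). At these group sizes and depths a small difference at a keratin bin was not detectable, and a bin that did not pass is not shown to be alike in the 2 groups.

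Genes that work with keratins were placed in the same way, each bin once. In the zygote construct comparison 22.2% of all bins were higher and 38.1% lower, and of bins in neither LAD list 2.15% and 74.9%. The lists are read against these shares, and their LAD class moves with their counts. Of 11 bins with desmosome and keratin-linker genes (such as Dsp and Jup, which anchor keratin filaments at cell junctions), 7 were in neither LAD list, and with Dam-lamin B1 against Dam in zygotes 2 were higher and 7 lower by limma, with a median of -0.71. Of 16 bins with other intermediate filament genes such as Vim and Des, 13 were in neither list, 0 were higher and 13 lower, with a median of -0.99. Of 10 bins with regulators of epidermis and hair such as Trp63, 8 were in neither list, 0 were higher and 6 lower, with a median of -0.67. The 44 genes of the cornified envelope and hair, late products made beside keratins, share 15 bins, of which 3 were in both lists and 2 in neither. The shares given for bins in neither list thus cover few of them. Of the 15 bins 0 were higher and 4 lower, with a median of -0.13. How many of them adjoin each other was not counted, and they are not separate tests of a gene class. In paternal against maternal pronuclei 1 of these 15 was higher and 0 lower by limma, with a median of 0.87. The other 3 lists had 0 higher and 0 lower, with medians of 0.40 for the linkers, 0.39 for the other filaments and 0.14 for the regulators. Over all bins 1.86% were higher and 0.268% lower, with a median of 0.19.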

How the data were processed

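Single-cell DamID libraries were analysed from the deposited table of observed over expected ratios (OE) in 24639 autosomal bins of 100 kb, of which 24022 held values, and from the deposited LAD lists. The submitters' processing notes name cutadapt, BWA 0.7.12 and build mm10; the making of the expected number and of the LAD lists is not described in the labels. Of 556 samples, 512 cells are in the table and 498 had a group; 14 with contradictory labels, and pooled or whole-lineage samples, were not used here. The members, lists and tests were chosen with earlier results of these data known.

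Genes were placed by their RefSeq midpoints (GRCm38.p6). A bin was put in a LAD list where it covered at least 50% of the bin. Named bins were those of Krt8, Krt18, Krt7, Krt19, Krt5, Krt71, Krt14, Krt1, Krt10, Krt35 and of the chr16 bin with most genes; in each test up to 10 called bins per direction, or the 2 smallest p-values; and the highest and lowest bin of each cluster by stage. Counts of 5 or fewer were named in full after their values were seen.

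Within a bin, OE values rise in equal steps, each taken as 1 read, and reads were recovered from these steps in 23954 bins. Between 99.987% and 100% of the values up to 30 reads were whole within 0.02 reads, but the step was chosen to make them so, and were a step several reads the true depth would be a multiple. PCR reads are not independent molecules, and intervals cover counting error only. Groups were tested with limma 3.58.1 (R 4.3.3) on log2(OE + 0.25) with a mean-variance trend, over bins above 0 in at least 25% of cells, 2-sided, Benjamini-Hochberg adjusted over all bins. Alternatives were pseudocounts of 0.1 and 1, no filter, a 75% filter, percentile ranks, equal reads, Fisher's exact test on OE of at least 1 (scipy 1.17.1), a replicate block, the bin of the gene start and all bins of a cluster's span. The replicate block kept only cells whose number occurs in both groups of a comparison. On simulated bins limma recovered 94 of 100 differences of 4-fold and 11 of 100 of 2-fold in the zygote construct comparison over 23805 bins, with 24 false calls. In paternal pronuclei with Kdm5b over 23848 bins it recovered 33 and 1, and in aphidicolin over 23815 bins 35 and 1. With equal reads these 3 comparisons gave 76 and 4, 13 and 0, and 8 and 0. The simulated spread between cells was set beforehand and not estimated from these cells, so recovery in the real data may differ.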

Additional observations from a re-analysis of the deposited data

Results flagged for a closer look

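In 4 of 21 cluster means of groups with 4 to 10 cells, 1 cell stood far from the others of its group by Dixon's criterion, where chance gives about 1 in 20. Among ES cells the highest chr15 mean was 1.92 and the highest chr16 mean 3.22, both in the same cell. Among zygotes with mutant Kdm4d the highest chr15 mean was 1.35 and the highest chr16 mean, in another zygote, 2.92.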

How the results depend on the processing

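In zygotes with Dam-lamin B1 against Dam, the 1 higher keratin bin became 2 on percentile ranks, 2 with equal reads, 0 with the replicate block and 0 by Fisher's exact test, and the 19 lower became 12 with equal reads. Of the 21 called keratin bins over all comparisons, 15 stayed past the threshold on percentile ranks, 12 with equal reads and 17 with a pseudocount of 1. The cause was not tested. In paternal against maternal pronuclei the 1 higher bin became 0 on percentile ranks, with equal reads, with the replicate block and by Fisher's exact test. Over all bins that comparison gave 444 higher and 64 lower, and 6 and 4 with equal reads. The chr11 level of oocytes was 0.138 as a median over bins. None of the alternatives run reversed a called bin. Replicate numbers did not pair the samples: at most 2 pairs of a comparison correlated above 0.1, and at most 2 cells of a comparison were most alike to their own number. With the replicate block the zygote comparison gave 0 higher and 16 lower keratin bins. Leaving out each of the 4 8-cell Dam cells moved the chr11 mean between 1.2 and 1.54, the chr15 mean between 1.26 and 1.59 and the chr16 mean between 0.318 and 0.469. A bin of a cell rests on a few reads, which limits single-cell contact calls.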
